A study of Mus musculus with 6 samples.

Results

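Genes that mark the fibroblasts and progenitor cells of the arterial adventitia were examined in cultured mouse aortic smooth muscle cells with and without the LIM-only protein FHL2. The set holds 9 genes, against 19057 genes named by the array's annotation: Pi16, Scara5, Clec3b, Ly6a, Ly6c1, Dpt, Cd34, Thy1 and Gsn. They were taken by symbol from the platform annotation, and 8 of the 9 were represented, with 11 probes in all. Ly6a, the gene of the progenitor antigen Sca-1, was not analysed here because the annotation used pairs no probe with its symbol. Wild-type and FHL2-knockout cells came from C57Bl/6 mice and differed by genotype alone as far as the labels state. Each genotype had 3 culture batches, each of cells pooled from 3 aortas, so that 9 mice stood behind a genotype, and each batch was hybridised to 1 array. RNA was taken from confluent cells after 48 h without serum. Age and sex of the mice and the construction of the knockout are not given in the labels, and cultured cells of pooled aortas do not show which animal or which layer of the wall a signal came from.

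The adventitia is the outer coat of an artery, built by fibroblasts that deposit collagen and by small numbers of progenitor, endothelial, immune and fat cells. In mouse tissues, fibroblasts that surround vessels are commonly recognised by Pi16, Scara5, Clec3b and Dpt, together with the surface proteins Cd34, Ly6a, Ly6c1 and Thy1, and Sca-1 with Cd34 also marks adventitial cells that can give rise to smooth muscle and other mesenchymal cells in culture. None of these genes is restricted to fibroblasts: Cd34 and Ly6c1 are also made by endothelium, Thy1 by T cells and neurons, and gelsolin by many cell types, smooth muscle among them.

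Median raw intensity lay between 116 and 172 on the 6 arrays, lowest on wild-type replicate 2. The number of probes detected was 14844 to 16115 of 45281, where detection means a detection p under 0.05 against the array's negative controls. Arrays of a genotype correlated at 0.985 to 0.988 and arrays of different genotype at 0.934 to 0.939. Fhl2 itself checked the labels: the log2 value of its brighter probe was 11.37 ± 0.14 (SD, n = 3) for wild-type and 6.80 ± 0.21 (SD, n = 3) for knockout arrays, and its dimmer probe was detected on 3 wild-type and 0 knockout arrays. Of 15527 tested probes in all, 29.6% differed between genotypes at an adjusted p under 0.05 (limma with Benjamini-Hochberg adjustment over all tested probes), and for 44.4% the groups did not overlap. Against this wide background, 14.4% rose and 15.2% fell in the knockout. Xist, looked at after its values were seen, was detected by all 4 of its tested probes on the 3 wild-type arrays and by none on the 3 knockout arrays, so that expression of this gene of the inactive X chromosome ran with the genotype. Its part in the results was not tested.

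Most of the adventitial markers that could be tested were lower in knockout cells, and Pi16 was higher. Of the 11 probes, 9 were tested, 6 of them lower, 1 higher and 2 neither, and for 6 the groups did not overlap. The shares over all tested probes were 15.2% lower, 14.4% higher and 44.4% without overlap, and the markers had been proposed with results of these data known. The tested probes of 7 of the 8 genes included a call. Clec3b and the dimmer Gsn probe entered the test through their wild-type arrays alone, and a probe kept in that way had to differ, so the count describes these probes and supports nothing beyond them. Scara5, Clec3b, Ly6c1, Thy1 and the dimmer Gsn probe fell, Cd34 sat at the edge of the threshold, and Dpt was near background in both genotypes. Of the genes that most narrowly mark adventitial fibroblasts, Pi16 and Scara5 were detected on all 6 arrays, Clec3b on the wild-type arrays, and Dpt on 3 of 6. In bulk RNA, fewer cells that express a gene and less of its RNA per cell cannot be told apart.

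**Figure D1:**
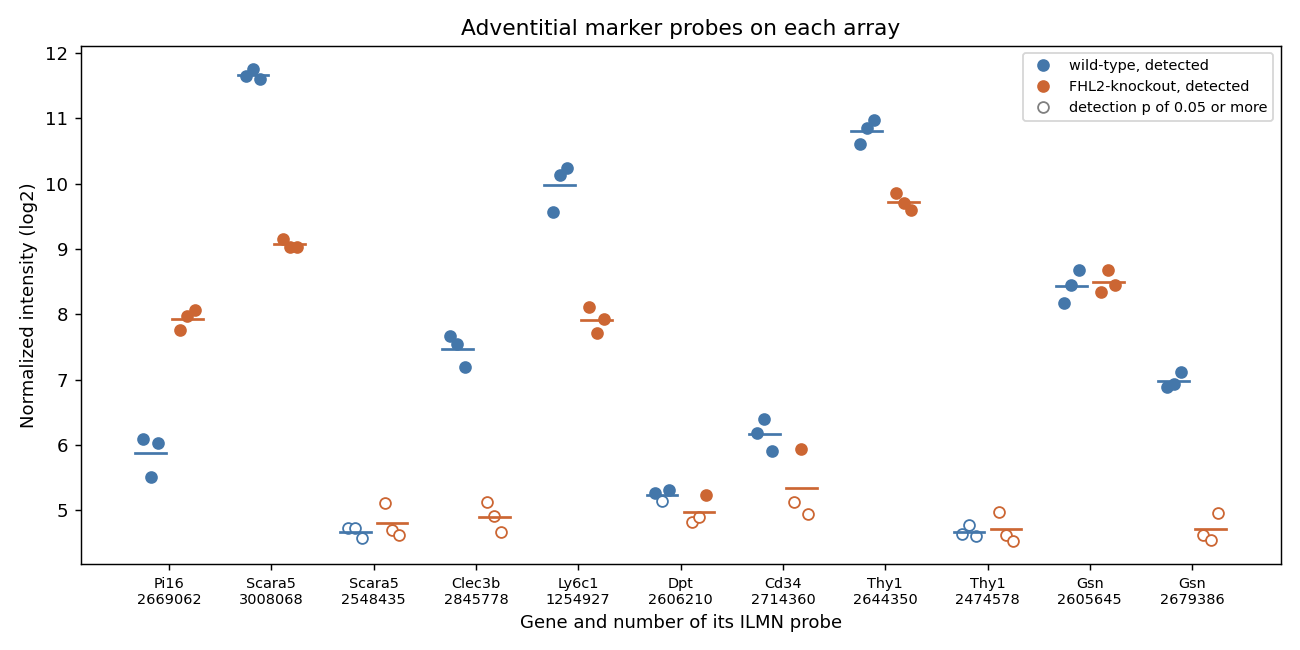
Normalized log2 intensity of the 11 annotated probes on each array, with wild-type in blue, FHL2-knockout in orange, a bar at each group mean and open circles for arrays with a detection p of 0.05 or more. Scara5, Clec3b, Ly6c1, Thy1 and the dimmer Gsn probe lay lower on all 3 knockout arrays, Pi16 lay higher on all 3, and the brighter Gsn probe overlapped between genotypes.

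Scara5 encodes a class A scavenger receptor that takes up ferritin, and it was detected on all 6 arrays. Its probe ILMN_3008068 gave log2 values of 11.65, 11.75 and 11.60 on the wild-type arrays and 9.15, 9.03 and 9.03 on the knockout arrays. The groups lay far apart, with a spread of 0.075 (SD, n = 3) in wild-type and of 0.072 (SD, n = 3) in knockout cells. The change was -2.59 ± 0.12 (SE), or 6.04-fold lower (limma adjusted p = 3.72e-06). The deposited raw intensities were 4476, 1816 and 3942 in wild-type and 704, 651 and 553 in knockout cells, so that the fall stood in the raw values as well, the dim wild-type replicate 2 included. The gene lies at chr14:65666403-65764826 (GRCm38.p6). A further Scara5 probe, ILMN_2548435, which is annotated to a separate cDNA record, was detected on 0 of 6 arrays and was not tested.

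Clec3b encodes tetranectin, a secreted C-type lectin that binds plasminogen, and it was not detected in knockout cells. Normalized values were 7.67, 7.54 and 7.19 on the wild-type arrays and 5.13, 4.92 and 4.68 on the knockout arrays. All 3 wild-type arrays had a detection p of 0, against 0.0769, 0.183 and 0.426 on the knockout arrays. With the knockout arrays at no less than the lowest detected level of each array, the gene (chr9:123150946-123157432) was at least 4.62-fold lower (limma adjusted p = 2.67e-05). The fitted change of -2.56 ± 0.17 (SE) rests on values at background, and without background correction it was -1.002 (adjusted p = 6.68e-08). That is a smaller fall than the bound, which holds for the main background step alone.

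Ly6c1 encodes a small surface protein of the LY6 family that is held in the membrane by a lipid anchor. Its probe gave 9.56, 10.14 and 10.24 on the wild-type arrays and 8.11, 7.71 and 7.92 on the knockout arrays. Wild-type replicate 1 was the lowest of its group and still stood above every knockout array. The change was -2.06 ± 0.20 (SE), or 4.18-fold lower (limma adjusted p = 1.80e-04). Ly6c1 (chr15:75044018-75048920) has near-identical relatives in the same gene cluster, Ly6c2 among them, and the probe may not tell them apart.

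Thy1, the gene of the surface glycoprotein CD90, was detected on all 6 arrays and fell less than the genes above. The wild-type arrays stood at 10.60, 10.84 and 10.98 and the knockout arrays at 9.85, 9.71 and 9.59. The groups did not overlap after normalization, whereas raw intensity was 1019 on the dim wild-type replicate 2 and 1051 on knockout replicate 1. The change was -1.09 ± 0.14 (SE), or 2.13-fold lower (limma adjusted p = 8.33e-04). The other Thy1 probe, ILMN_2474578, was at background on every array and was not tested. The gene lies at chr9:44043384-44048579.

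Cd34 encodes a sialomucin of progenitor, endothelial and fibroblast surfaces, and its call rested on a narrow margin. Values were 6.19, 6.40 and 5.91 on the wild-type arrays and 5.12, 5.94 and 4.95 on the knockout arrays. Knockout replicate 2, the only knockout array with detection, lay above the lowest wild-type array, so that the groups overlapped. The change was -0.83 ± 0.26 (SE), or 1.78-fold lower (limma adjusted p = 0.0444). Under 9 of 16 alternatives the call was lost, among them the omission of any array but knockout replicate 2, without which the change was -1.13 (adjusted p = 0.00439). The adjusted p ranged from 0.00439 to 0.132 over these alternatives. The gene lies at chr1:194938821-194961292.

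Dpt encodes dermatopontin, a matrix protein that binds decorin and collagen. Its probe stood at 5.26, 5.15 and 5.31 on the wild-type arrays and at 4.83, 4.89 and 5.23 on the knockout arrays, and it was detected on 2 of 3 wild-type arrays and 1 of 3 knockout arrays. These levels are at the edge of detection, and the groups overlapped. A change of -0.26 ± 0.14 (SE) did not pass (limma adjusted p = 0.220), and a difference in this gene (chr1:164796663-164824274) was not measurable at this signal.

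**Figure D2:**
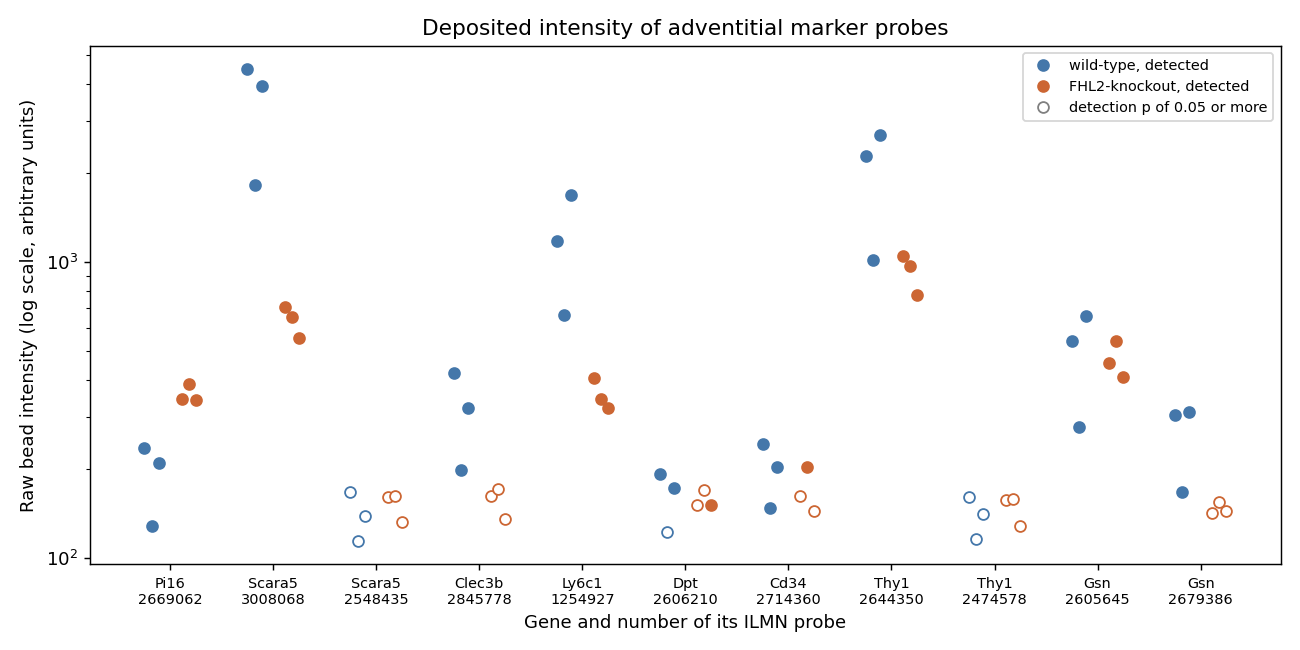
Deposited raw bead intensity, on a log axis, of the same 11 probes by array, with filled circles for detected and open circles for undetected arrays. Scara5 lay at 1816 or more on the wild-type arrays and at 704 or less on the knockout arrays, while its other probe and ILMN_2474578 of Thy1 stayed at background throughout.

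Pi16, the gene of a secreted peptidase inhibitor of the CAP protein family and the name-giving marker of perivascular fibroblasts in mouse tissues, moved opposite to Scara5, Clec3b and Ly6c1. Its probe gave 6.10, 5.51 and 6.03 on the wild-type arrays and 7.76, 7.98 and 8.06 on the knockout arrays. Every knockout array stood above every wild-type array, and the lowest value came from wild-type replicate 2, where the detection p was 0.0246. The change was 2.05 ± 0.18 (SE), or 4.15-fold higher (limma adjusted p = 9.91e-05). Without background correction it was 0.995 (adjusted p = 4.76e-08). The gene lies at chr17:29318796-29328903.

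Gelsolin, the product of Gsn, cuts and caps actin filaments in the cytoplasm, and a secreted form that is made from another start site clears actin from plasma. Its 2 probes went separate ways. The brighter probe, ILMN_2605645, stood at 8.18, 8.45 and 8.67 on the wild-type arrays and at 8.35, 8.67 and 8.44 on the knockout arrays, with a change of 0.05 ± 0.16 (SE) and overlapping groups (limma adjusted p = 0.842). The dimmer probe, ILMN_2679386, stood at 6.89, 6.94 and 7.12 on the wild-type arrays and at 4.63, 4.55 and 4.95 on the knockout arrays. Detection on the 3 wild-type arrays contrasted with 0 of 3 on the knockout side, and the probe was at least 3.29-fold lower (limma adjusted p = 2.21e-05). The change of the dimmer probe without background correction was -0.81 (adjusted p = 3.59e-07), a smaller fall than its bound. Gsn lies at chr2:35256359-35307902. The brighter probe is annotated to a cDNA record and the dimmer to a RefSeq transcript, and the sources used here do not say which of the gene's transcripts each probe binds.

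**Figure D3:**
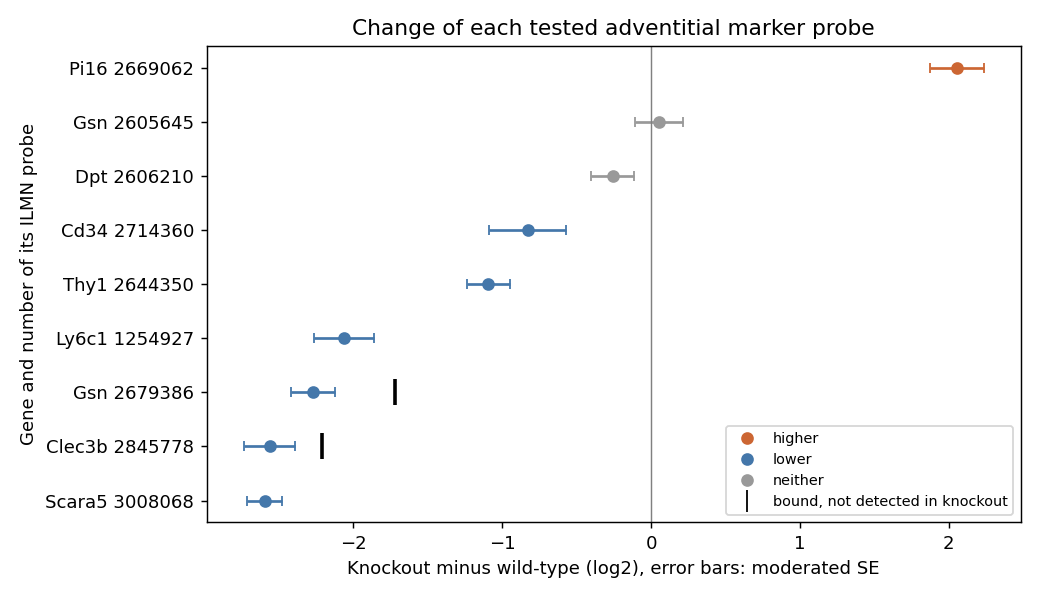
Knockout minus wild-type difference on the log2 scale for the 9 tested probes, with moderated standard errors, and black bars at the bound where a probe was not detected in knockout cells. Scara5 stands at -2.59 and Pi16 at 2.05, and the Gsn probes stand at 0.05 and -2.27.

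Promoter sequence was available for 5 of the 9 genes, in 8 windows of 300 bases that run from 250 before to 50 after an annotated start (RefSeq, GRCm38.p6). Those of Gsn are shown because its probes disagree and the gene has several starts, that of Pi16 because it rose, and that of Ly6c1 because it fell. Each runs 5′ to 3′ on the gene's strand, with motif matches in capitals.
Pi16, chr17:29318632-29318931, strand +: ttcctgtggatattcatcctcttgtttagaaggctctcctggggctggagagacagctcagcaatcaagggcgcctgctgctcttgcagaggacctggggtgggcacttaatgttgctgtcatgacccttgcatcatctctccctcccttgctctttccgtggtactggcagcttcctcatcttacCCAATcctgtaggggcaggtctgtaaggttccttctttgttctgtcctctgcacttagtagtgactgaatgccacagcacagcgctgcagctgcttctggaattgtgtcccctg
Ly6c1, upstream start, chr15:75048788-75049087, strand -: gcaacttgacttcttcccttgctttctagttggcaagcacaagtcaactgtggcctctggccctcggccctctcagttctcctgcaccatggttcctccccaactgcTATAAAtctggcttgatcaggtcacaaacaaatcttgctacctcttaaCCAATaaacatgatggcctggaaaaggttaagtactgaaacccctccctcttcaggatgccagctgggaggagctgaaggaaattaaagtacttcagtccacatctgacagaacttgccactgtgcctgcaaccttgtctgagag
Gsn, first start, chr2:35256109-35256408, strand +: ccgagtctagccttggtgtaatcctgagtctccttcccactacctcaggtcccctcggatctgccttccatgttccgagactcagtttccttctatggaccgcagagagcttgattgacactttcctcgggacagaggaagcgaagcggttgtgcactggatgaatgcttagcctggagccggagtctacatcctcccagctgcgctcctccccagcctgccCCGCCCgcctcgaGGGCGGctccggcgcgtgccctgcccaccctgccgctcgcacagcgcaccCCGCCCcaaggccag
Gsn, second start, chr2:35266494-35266793, strand +: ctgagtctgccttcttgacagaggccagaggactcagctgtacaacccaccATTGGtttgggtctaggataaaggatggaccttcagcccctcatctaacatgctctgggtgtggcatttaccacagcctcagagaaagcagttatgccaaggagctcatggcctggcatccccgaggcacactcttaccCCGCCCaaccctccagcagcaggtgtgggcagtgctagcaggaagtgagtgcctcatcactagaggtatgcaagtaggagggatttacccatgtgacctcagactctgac
Gsn, last start, chr2:35282130-35282429, strand +: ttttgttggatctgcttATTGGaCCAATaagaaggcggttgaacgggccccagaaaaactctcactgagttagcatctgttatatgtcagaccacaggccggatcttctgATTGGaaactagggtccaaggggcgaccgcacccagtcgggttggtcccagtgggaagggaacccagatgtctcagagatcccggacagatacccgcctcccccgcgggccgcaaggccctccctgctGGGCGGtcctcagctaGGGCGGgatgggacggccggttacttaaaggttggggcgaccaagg
The letters searched, on both strands, were TATAAA for the TATA box, GGGCGG for the GC box, CCAAT for the CCAAT box, TGANTCA for the AP-1 site and TTCNNNGAA for the GAS element to which STAT factors bind, and the CArG box of serum response factor was searched by its usual pattern. No matches overlapped in the windows shown. Among 32851 windows of this length, 13.6% held the TATA box, 35.7% the GC box, 37.4% the CCAAT box, 7.81% the AP-1 letters, 8.30% the GAS letters and 1.63% the CArG box. The Pi16 window held a CCAAT box at -64 from the start. The upstream Ly6c1 window held TATAAA at -143 and CCAAT at -95, and the downstream one, which overlaps it, held none of the letters. For Pi16 and Ly6c1 these starts lie inside the gene spans given above, so the positions do not count from the spans' ends. The Pi16 match itself lies inside the span. The first Gsn window held GC boxes at -28, -15 and 36 and no CCAAT, the second a GC box at -60 and a CCAAT box at -199, and the last GC boxes at -12 and 5 with CCAAT boxes at -233, -227 and -140. The Gsn windows differed in base composition, at 63.7%, 54.7% and 58.7% G and C, against a median of 52.7% over all windows. A match describes letters, and binding was not measured here.

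Other genes of adventitial and tissue fibroblasts changed in both directions. Of 40 listed genes, 38 had a probe and 28 were tested, of which 7 were higher and 10 lower, with a median change of -0.25 against -0.01 over all 9051 tested genes. The summed background-corrected intensity of the list, over the brightest probe of each gene, was 110758 to 115295 in wild-type and 94567 to 99675 in knockout cells. Such a sum follows its brightest genes. In wild-type cells these were Ogn and Serpinf1, which were 2.06-fold and 1.74-fold lower, while the bright genes Dcn and Anxa3 rose 2.59-fold and 1.43-fold. By the brightest probe, 14.8% of all tested genes were higher and 16.5% lower, and the counts of every later list stand beside the same shares. Pdgfra, the platelet-derived growth factor receptor that defines most fibroblasts, fell by 2.48 ± 0.12 (SE) on the log2 scale (limma adjusted p = 5.28e-06), while Pdgfrb, its relative on mural cells, gave -0.11 ± 0.13 (SE, adjusted p = 0.578). Smpd3, a neutral sphingomyelinase, rose 10.3-fold, Cd55, which restrains complement, 3.70-fold, and the proteoglycan decorin (Dcn), with 3 further tested probes higher too, 2.59-fold. Igfbp6, which binds insulin-like growth factor II, was 4.08-fold lower, and lumican (Lum), a collagen-binding proteoglycan detected on 2 of 3 knockout arrays, 4.99-fold lower. Igfbp6, Lum, Ogn, Serpinf1 and Anxa3 were picked from the list after their values were seen. Dpp4 and Sema3c, which accompany Pi16 in fibroblasts of mouse tissues, did not follow a common course. Dpp4 was detected on 0 of 6 arrays by its brightest probe. Sema3c, a semaphorin not detected on any wild-type array, was at least 2.05-fold higher.

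**Figure D4:**
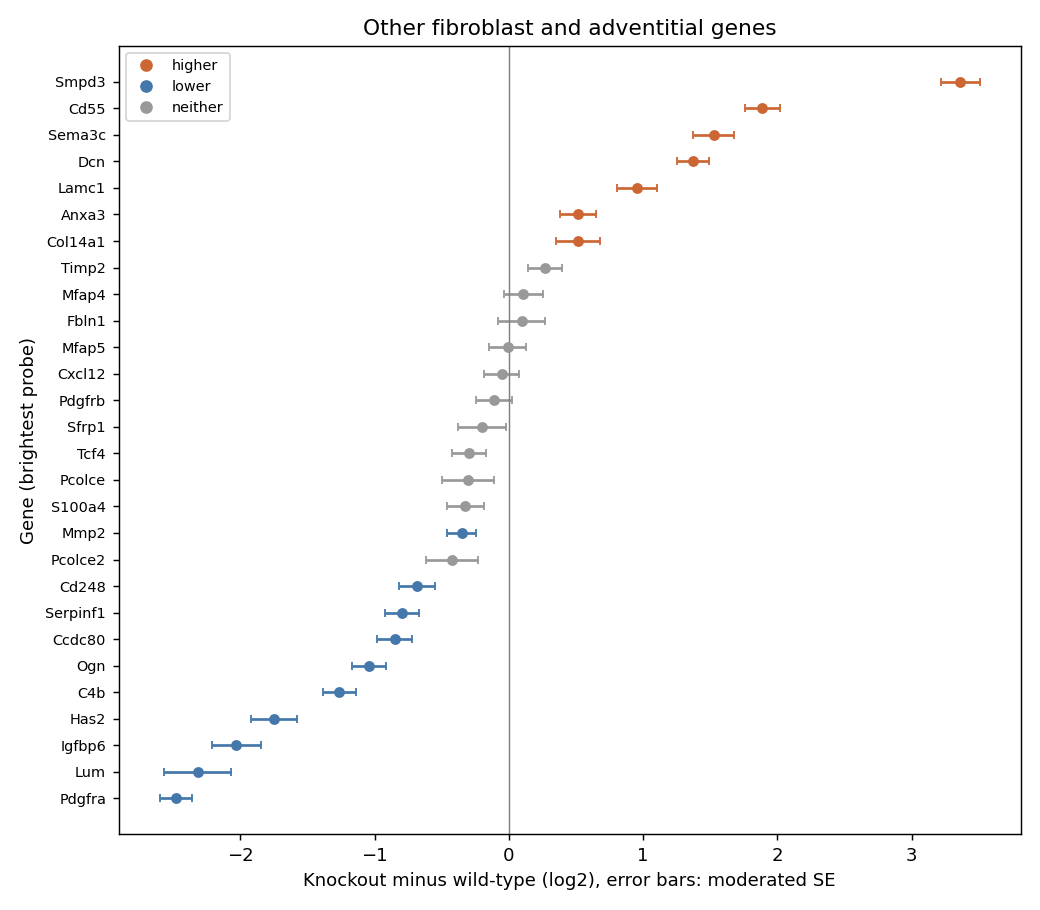
Knockout minus wild-type difference (log2, brightest probe, moderated standard errors) of the 28 tested genes on the list of other fibroblast and adventitial genes. The values run from -2.48 for Pdgfra to 3.36 for Smpd3, with 7 genes higher and 10 lower.

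Genes of hedgehog signalling, a pathway active in adventitial progenitor cells, were mostly dim. Of 17 listed with resident progenitor markers, 16 had a probe and 6 were tested, 2 higher and 1 lower. Gli2, a transcription factor of the pathway, rose 2.50-fold and Klf4, a factor linked to progenitor state, 1.92-fold, while the repressor Gli3 was 1.503-fold lower. Gli1 and Kit were detected on 0 of 6 arrays, and the receptor Ptch1 gave 0.14 ± 0.14 (SE, limma adjusted p = 0.520). Without knockout replicate 2 the count of lower genes was 0.

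Relatives of Ly6c1 and Ly6a in the LY6/uPAR family changed in both directions, as did relatives of the other markers. Of 24 LY6/uPAR genes with a probe, 9 were tested, 2 higher and 3 lower, with a median of -0.08. Lypd1 was not detected on any knockout array and was at least 8.65-fold lower by its brightest probe, but another of its probes rose by 1.26 (limma adjusted p = 1.76e-04), so the gene has no settled direction. Cd59a, an inhibitor of complement lysis, was 2.60-fold lower, the urokinase receptor gene Plaur rose 2.73-fold, and Slurp1, not detected in wild-type cells, was at least 3.19-fold higher. Ly6e, another member of the family, gave -0.24 ± 0.17 (SE, adjusted p = 0.336). Among 22 relatives of the other markers, 14 were tested, 5 higher and 6 lower. In the CAP family of Pi16, Glipr1 rose 6.31-fold and Glipr2 1.92-fold, and Crispld2, not detected in knockout cells, was at least 1.23-fold lower (limma adjusted p = 0.00257). In the gelsolin family, scinderin (Scin) rose 5.76-fold, the capping protein Capg was 4.08-fold and Vill 2.52-fold lower, and Avil, not detected in knockout cells, was at least 1.75-fold lower. Svil at 0.63 (adjusted p = 0.0861) and Flii at -0.15 (adjusted p = 0.450) did not pass. The Cd34 relative podocalyxin (Podxl), not detected in wild-type cells, was at least 5.51-fold higher, and Scara3, a relative of Scara5, gave -0.58 ± 0.12 (SE, adjusted p = 0.00821). Surface markers of mesenchymal stromal cells, the group to which Thy1 also belongs, split 3 higher to 3 lower of 12. Mcam rose 5.29-fold and Alcam 2.23-fold, whereas Cspg4 was 3.31-fold and Cd200 2.63-fold lower.

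Markers of the labelled cell type and of its neighbours were examined as well, and some of them differed between genotypes. Of 14 smooth muscle markers 11 were tested, 5 higher and 1 lower, with a median of 0.50. Over all tested genes, by the brightest probe, 14.8% were higher and 16.5% lower. Acta2 gave 0.50 ± 0.14 (SE, limma adjusted p = 0.0277) by its brightest probe. Its other tested probes were higher too, by 0.84, 0.92 and 1.11 (adjusted p = 0.00213, 0.00529 and 0.00113). Tagln gave 0.25 ± 0.19 (SE, adjusted p = 0.358), and the smooth muscle actin gene Actg2 rose 14.8-fold. Tpm2, Lmod1 and Myl9 rose 2.33-fold, 2.13-fold and 1.94-fold. Mylk, the gene of myosin light chain kinase, gave -0.56 ± 0.11 (SE, adjusted p = 0.00715). Of the markers that define mature smooth muscle, Myh11 was detected on 1 wild-type and 2 knockout arrays, Cnn1 on none, and the cofactor gene Myocd on 1 knockout array alone. The summed intensity of the list was 25642 to 31755 in wild-type and 41284 to 45529 in knockout cells, of which Acta2 made up 81.6% to 87.3% on each array. Without Acta2 it was 4047 to 4623 in wild-type and 7593 to 7995 in knockout cells.

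Endothelium also expresses Cd34 and Ly6c1, and 8 of 14 listed endothelial markers were tested, 6 lower and 0 higher. All 6 were kept through detection on the wild-type arrays alone and so had to differ, and the count supports nothing. Requiring detection on all 6 arrays left these genes out by construction, and 0 were then lower. Of the receptor genes Flt1 and Kdr, Flt1 was detected on all 6 arrays and gave -0.25 ± 0.23 (SE, limma adjusted p = 0.461). Kdr was detected on 1 wild-type and 3 knockout arrays and gave 0.30 ± 0.20 (SE, adjusted p = 0.303). Pecam1 and Cdh5 were at least 1.95-fold and 1.40-fold lower, and the bounds for Emcn, Egfl7, Esam and Icam2 were falls of 27.9-fold, 7.71-fold, 6.08-fold and 2.73-fold. The summed intensity was 1873 to 2375 in wild-type and 334 to 437 in knockout cells. Emcn, at a mean log2 value of 10.06, was the brightest gene of the list in wild-type cells. The part of the endothelial difference in the falls of Cd34 and Ly6c1 was not tested.

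Of 16 haematopoietic markers 13 had a probe and 3 were tested. Ptprc, the gene of the pan-leukocyte antigen CD45, was detected on 0 of 6 arrays, as were Adgre1, Itgam, Laptm5 and Tyrobp. The lysozyme gene Lyz2 was 5.33-fold lower, Cd14 rose 1.91-fold, and Csf1r gave 0.00 ± 0.14 (SE, limma adjusted p = 0.997). The summed intensity of the list was 468 to 563 in wild-type and 251 to 314 in knockout cells. In wild-type cells Lyz2 made up most of this sum, with a mean log2 value of 8.47 against 6.06 in knockout cells. Of 11 mesothelial and epithelial markers 5 were tested and 5 were higher, 3 of them kept through the knockout arrays alone. The count was 4 under 12 of 18 alternatives. With detection on all 6 arrays required, which leaves out those 3 genes and Cdh1 by construction, it was 1. The keratin gene Krt7 was at least 1.21-fold higher (limma adjusted p = 0.0384). Upk1b and Msln were at least 45.6-fold and 7.15-fold higher, Upk3b rose 11.1-fold and Cdh1 2.20-fold, and the summed intensity was 136 to 161 in wild-type and 2658 to 2839 in knockout cells. Upk1b, at a mean log2 value of 10.76, made up most of the knockout sum. Of the listed genes not tested, Krt18 was detected on 1 wild-type array alone, and Krt8 on 1 and Krt19 on 2 knockout arrays alone. Epcam and Lrrn4 were detected on 0 of 6 arrays, and Wt1 had no probe. Adipocyte markers, whose cells also lie around the vessel, gave 0 higher and 3 lower of 4 tested, or 1 higher without knockout replicate 2. Lpl, Pparg and Plin4 were 25.6-fold, 4.24-fold and 2.61-fold lower. Adipoq was detected on 1 wild-type array, Plin1 on 1 knockout array, and Fabp4 and Cidec on 0 of 6 arrays. The summed intensity was 4614 to 5378 in wild-type and 618 to 713 in knockout cells. In wild-type cells Lpl made up most of this sum, with a mean log2 value of 11.82 against 7.15 in knockout cells. In the list of Schwann cell and neural genes 3 were tested. Mbp rose at least 2.30-fold, and Egr2 was lower by a factor of 2.07 or more. Mbp was detected on the knockout arrays alone and Egr2 on the wild-type arrays alone, so both had to differ. Ncam1 gave -0.06 ± 0.25 (SE, limma adjusted p = 0.891) by its brightest probe. Its other tested probes gave -1.31, -0.18 and -0.22 (adjusted p = 0.00319, 0.497 and 0.371). Sox10 was detected on 0 of 6 arrays, and the summed intensity was 232 to 256 in wild-type and 205 to 335 in knockout cells. The part of these cell type markers in the changes of the adventitial genes was not tested.

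**Figure D5:**
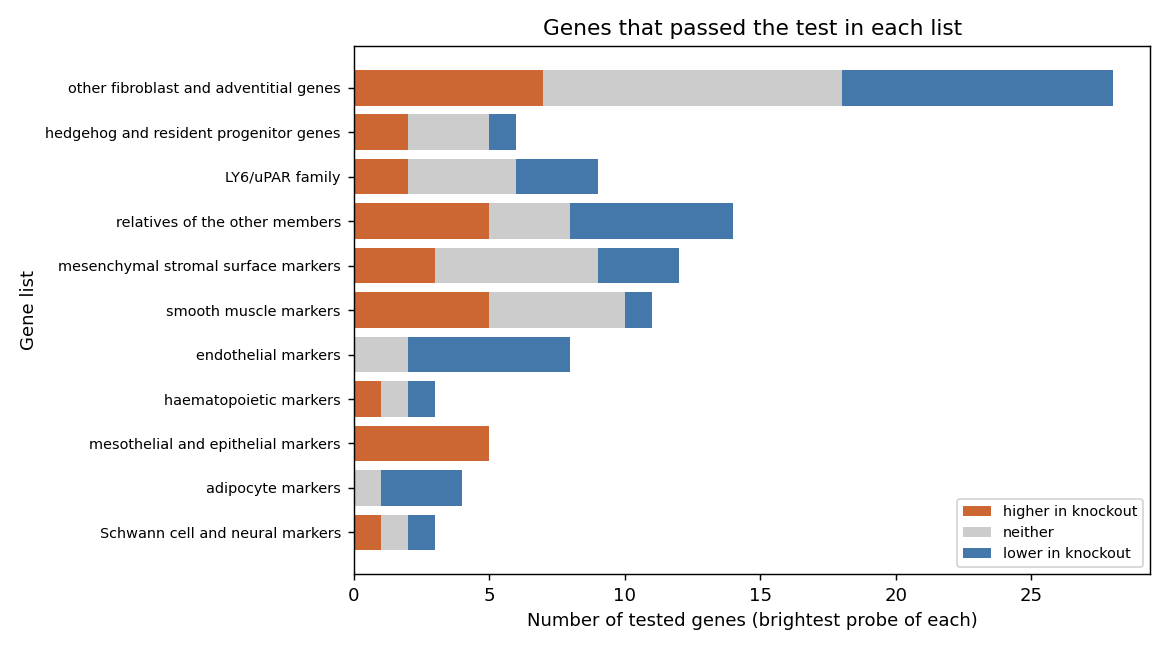
Number of tested genes in each list that were higher (orange), lower (blue) or neither (grey) in knockout cells, by the brightest probe of each gene. Fibroblast genes, LY6 relatives and stromal markers split between directions. All 6 lower endothelial markers and 3 of the 5 higher mesothelial and epithelial markers were kept through detection in 1 genotype alone. Requiring detection on all 6 arrays left these genes out by construction, and Cdh1 as well, and the counts were then 0 and 1.

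For each marker called by its brightest probe, which leaves out Gsn, the genes with the most similar profile were found by the distance between log2 values over the 6 arrays, after each probe's mean was subtracted. Nearest to Scara5 were Egr3, at a distance of 0.09 with a change of -2.56, and Fbxo2, at 0.22. Clec3b lay closest to Slc27a3 and G0s2, at 0.17 and 0.18, and Thy1 to Itprid2 and 1110038B12Rik, at 0.15 and 0.17. For Ly6c1 the closest were Capg and Igfbp6, at 0.36 and 0.41, both of which also stand on the lists above. Pi16 was closest to Gas2l3 and Hsd17b7, at 0.21 and 0.27, and Cd34 to Itga2b and Klhdc9, at 0.32 and 0.39. Over arrays of 2 genotypes this likeness mostly records a change of similar size.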

How the data were processed

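RNA of 6 culture batches was measured on 1-colour Illumina beadchips. The authors deposited an intensity per probe and array, which its values show to be neither background-subtracted nor scaled, and beside it a detection p-value per probe and array, per the file headers. They also deposited a matrix of log2 values normalized between arrays, which was used as an alternative. Its columns correlated at 0.999 with the values used here, and its offset and background step are not given in the sources used here. GenomeStudio 2011.1, limma 3.10.2 and R 2.14.0 are listed in the submitters' processing notes, with no role.

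Intensities were processed with neqc in limma 3.58.1 (R 4.3.3), which estimates background from the detection p-values, adds an offset of 16 and equalises quantiles. The offset shrinks changes of dim probes, and quantile normalization assumes like distributions in both genotypes. Probes with a detection p under 0.05 on at least 3 of 6 arrays were tested by limma's lmFit and eBayes for genotype, with Benjamini-Hochberg adjustment over all 15527. Every adjusted p in the text is from this fit or the alternative named beside it. A bound ("at least") sets the detected group's mean against the other group's values, each raised to the lowest detected value of its array. Bounds hold for the offset of 16, and other background steps can give smaller changes. Lists count the brightest tested probe of each gene. For listed genes that were not tested, detection is given for the brightest probe alone. Symbols were brought up to date with a GRCm38.p6 RefSeq table, matched on gene identifier (34807 of 34885 probes with 1 symbol matched, 18 had several and 10378 none). Probe positions are not given in the sources used here.

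The markers and the 11 lists were chosen with earlier results of these data known. Named genes were every marker and Fhl2 with all probes, up to 4 called genes of smallest p per list, the first 3 of each cell type list, and the 2 most similar genes per marker called by its brightest probe. Any other gene was named after its values were seen. Alternatives changed the background, normalization, source, filter, variance model, weights, replicate block, omitted array, fold threshold and averaging of probes. Precision is limited by the number of arrays, and no slide or scan date was used to test for batches.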

Additional observations from a re-analysis of the deposited data

How the results depend on the processing

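Among 148 values of the tested marker probes under the alternatives, 137 kept both direction and side of the threshold. The other 9 besides the reversals were losses of the Cd34 call, and the brighter Gsn probe, which never passed, reversed sign when wild-type replicate 1 or knockout replicate 2 was left out (range -0.074 to 0.173 over the 6 omissions). The count of lower marker probes was 5 or 6 when an array was left out, and 1 was higher each time. It was 3 when detection on all 6 arrays was required, which leaves out Clec3b, Cd34 and the dimmer Gsn probe by construction, and the count of lower genes over all lists was then 23 in place of 35. Changes of dim probes depended on the background step: at an offset of 50, Clec3b gave -1.72 and the dimmer Gsn probe -1.41. Both are smaller falls than the bounds given for these probes. With the replicate number as a block, 1 marker probe was higher and 6 lower, and 2147 and 2258 of all probes against 2235 and 2361 without it. Deviations of same-numbered arrays correlated at 0.118, 0.073 and 0.064, so the numbers were not taken to pair the samples, although each array correlated best with its own number. Median scaling moved the median of all probes to 0.04. Signal over background limits Dpt, Cd34 and every bound.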
